A study of Caenorhabditis elegans with 8 samples.

Results

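The genes described here are 10 regulators of X chromosome dosage compensation in the nematode Caenorhabditis elegans: xol-1, sdc-1, sdc-2, sdc-3, dpy-21, dpy-26, dpy-27, dpy-28, mix-1 and dpy-30. They were taken by gene name from the deposited embryo and L1 tables, and all 10 were listed in both, among 13692 genes in the embryo table, 16249 in the L1 table and 16606 in either. RNA was sequenced from the wild-type strain N2 and from FAS43, which the series describes as null for histone H3.3, the variant placed in chromatin outside DNA replication, and which carries the alleles uge44 (his-69 and his-70), tm2066 (his-72), uge18 (his-74) and ok2289 (his-71). Embryos of mixed stages and first-stage (L1) larvae of both strains were grown at 20 °C, with 2 libraries in each of the 4 groups. The labels name FAS43 as a single strain and do not say that duplicates were separate cultures, so p-values measure only how far these libraries differ, which may be a technical spread.

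In C. elegans, hermaphrodites carry a pair of X chromosomes and males carry a single one. Dosage compensation lowers transcription of both X chromosomes of the hermaphrodite, through a protein complex built around a condensin, a ring-shaped machine that otherwise compacts chromosomes for division. The pathway is switched in early embryos: xol-1 acts high in it to block the complex in males, and where xol-1 is low sdc-2 is active and brings the complex to X. The complex then keeps working in larval and adult tissues.

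Values below are normalised read counts (CPM, scaled to the library total) scaled with TMM factors, which correct library size for composition, and a gene is called where its edgeR adjusted p is under 0.05. CPM of single libraries and marker sums use factors fitted within each stage. Library totals ran from 17408914 to 30127179 counts. The genotype was checked on his-71 and his-72, mutated H3.3 genes. For his-71, FAS43 libraries held 2 and 3 reads in embryos and 6 and 6 in L1. N2 libraries held 2412 and 2461 (embryos), then 4595 and 4020 (L1). For his-72, FAS43 libraries held 29 and 32 reads in embryos and 98 and 162 in L1. N2 libraries held 59440 and 25296 of these (embryos), then 10881 and 11314 (L1). Body wall muscle markers summed to between 617 and 2064 CPM in embryo libraries and to between 9521 and 18323 CPM in L1 libraries. Markers of first-stage larvae did not separate the stages in N2, at 222 to 263 CPM in embryos and 188 to 464 in L1. In FAS43 they summed to 223 to 259 CPM in embryos and 355 to 608 in L1. All 17 early embryo markers were detected in every library, L1 included. Of 6 sperm markers 0 were listed.

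Libraries of the same group differed in ways that touch the members. Median expression moved with exon length: in N2 L1 replicate 2 the 763 genes with 4000 or more bases of exon lay 0.91 below their L1 mean on the log2 CPM scale, while the 5006 genes under 1000 bases lay 0.44 above it. In N2 embryo replicate 2 the order was opposite, with long genes 0.51 above and short genes 0.35 below the embryo mean. Of the members, 7 have 4000 or more bases of exon (sdc-2, sdc-3, dpy-21, dpy-26, dpy-27, dpy-28 and mix-1), sdc-1 and xol-1 have from 2000 to under 4000, and dpy-30 has under 1000. Early embryo markers were also uneven, with a median deviation of -1.31 in FAS43 embryo replicate 1, 1.02 in FAS43 embryo replicate 2, -1.02 in N2 L1 replicate 2 and 1.47 in FAS43 L1 replicate 1. Late embryo epidermis and cuticle markers had a median deviation of 1.36 in FAS43 L1 replicate 1 and -2.02 in FAS43 L1 replicate 2. The part of exon length and of embryo or larval age in the member values was not tested separately. In RNA from whole animals, fewer cells of a type and less RNA per cell cannot be told apart.

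**Figure D1:**
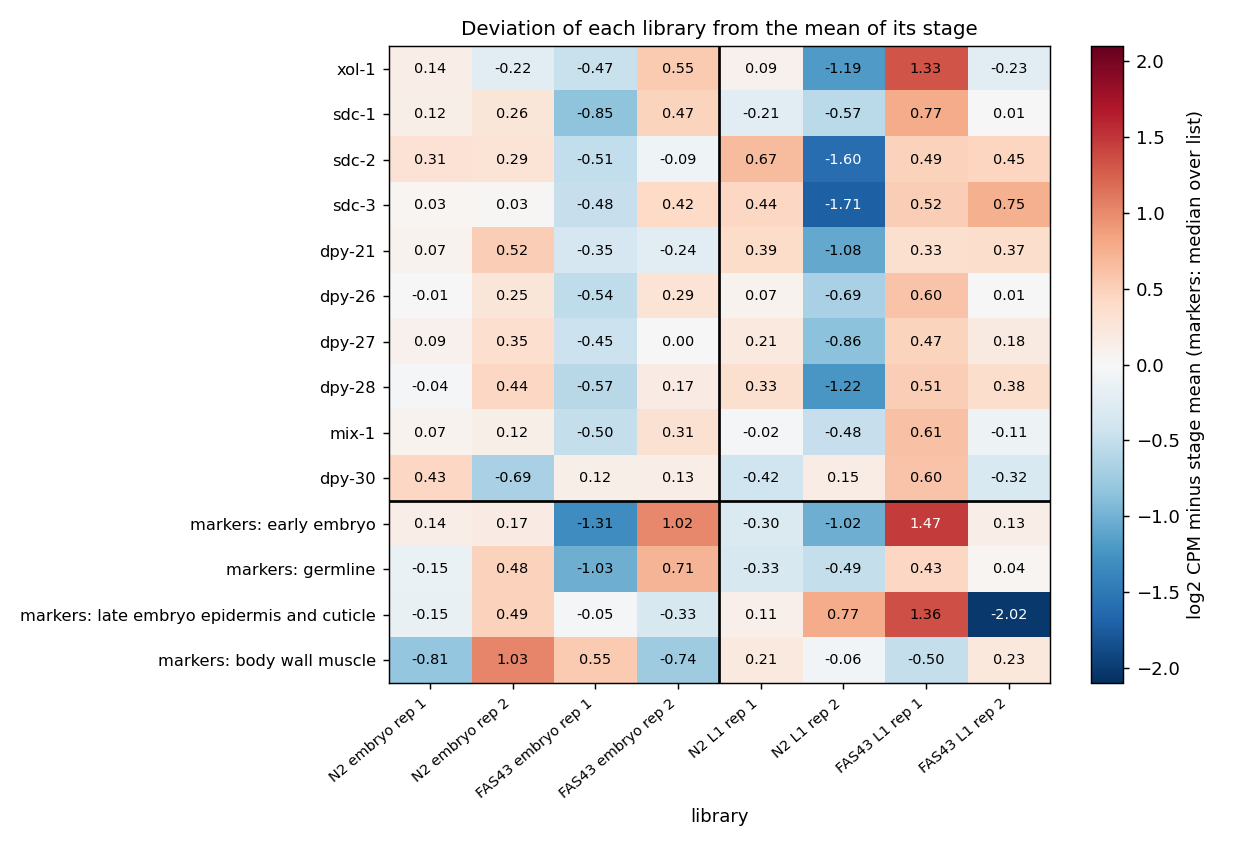
Deviation of each member (rows above the line) and of the median of 4 marker lists (rows below it) from the mean of the stage, in log2 CPM, for the 8 libraries (columns). FAS43 embryo replicate 1 and N2 L1 replicate 2 are blue for 9 of 10 members, and both are also blue for early embryo markers.

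The switch gene xol-1, which encodes a protein that promotes male fate, had the lowest level per length of the 10 genes in all 4 groups. It lies on X from 8041313 to 8044409 on the plus strand (WBcel235). Its counts were 302 and 220 in N2 embryos, 156 and 377 in FAS43 embryos, 44 and 10 in N2 L1, and 92 and 24 in FAS43 L1. These were 11.2 and 8.79 CPM in N2 embryos and 7.35 and 15.1 CPM in FAS43 embryos, so the FAS43 libraries lay on either side of the N2 ones. In L1 it had 1.41 and 0.534 CPM in N2 and 3.44 and 1.12 CPM in FAS43, and the groups overlapped. Each L1 library was below each embryo library of the same strain.

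The sdc genes encode the proteins that place the complex on X and also repress the male sex-determining gene her-1. Sdc-2, the hermaphrodite-specific trigger, lies on X from 11522707 to 11533450 on the plus strand. It had 239 and 236 CPM in N2 embryos and 135 and 181 CPM in FAS43 embryos. In L1 it had 91.5 and 18.96 CPM in N2 and 80.8 and 78.7 CPM in FAS43. The FAS43 embryo values were both below the N2 ones, and in L1 the N2 pair lay on either side of the FAS43 pair, with N2 replicate 2 far below the other 3 libraries.

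Sdc-3, a zinc finger protein of the recruiting complex, lies on V from 15039148 to 15048207 on the minus strand. Its 2 N2 embryo libraries held 120.0 and 119.8 CPM, and FAS43 embryos 84.0 and 157 CPM. In L1 it had 74.1 and 16.7 CPM in N2 against 78.2 and 92.1 CPM in FAS43. As for sdc-2, N2 L1 replicate 2 stood low. Sdc-1, a further zinc finger protein of the group, lies on X from 16275763 to 16282534 on the plus strand. It had 111 and 122 CPM in N2 embryos and 56.6 and 141 CPM in FAS43 embryos. Its L1 values were 30.9 and 24.1 CPM in N2 and 61.4 and 36.1 CPM in FAS43, which did not overlap.

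The condensin of the complex shares most of its subunits with a condensin of mitosis. Dpy-27, which encodes the SMC4-like ATPase found only in the dosage compensation complex, lies on III from 3813018 to 3819679 on the minus strand. It had 399.9 and 479 CPM in N2 embryos, 275 and 377 in FAS43 embryos, 242 and 115 in N2 L1, and 289 and 237 in FAS43 L1. FAS43 embryos lay below N2 embryos without overlap, and the L1 groups overlapped. Its SMC partner mix-1, the SMC2 subunit that all condensins of the worm share, lies on II from 10824246 to 10841424 on the plus strand. It had 336 and 347 CPM in N2 embryos, 225 and 397 in FAS43 embryos, 139 and 102 in N2 L1, and 217 and 132 in FAS43 L1. Both genotype pairs of mix-1 overlapped.

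Dpy-26, the kleisin that closes the ring, lies on IV from 12445801 to 12451335 on the minus strand. It had 262 and 314 CPM in N2 embryos, 181 and 323 in FAS43 embryos, 133 and 78.8 in N2 L1, and 193 and 128 in FAS43 L1. Dpy-28, a HEAT-repeat subunit, lies on III from 10763131 to 10777076 on the plus strand. It had 207 and 289 CPM in N2 embryos, 143 and 240.4 in FAS43 embryos, 169 and 57.8 in N2 L1, and 192 and 175 in FAS43 L1. The embryo groups overlapped for both genes, and the L1 groups for dpy-26 alone.

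The remaining subunits act on chromatin. Dpy-21, a demethylase of lysine 20 of histone H4 that enriches the monomethylated form on X, lies on V from 17936282 to 17949193 on the minus strand. It had 298 and 407 CPM in N2 embryos, 223 and 240.4 in FAS43 embryos, 345 and 125 in N2 L1, and 332 and 340.2 in FAS43 L1. FAS43 embryos were below N2 embryos without overlap. Dpy-30, a small protein that is also a core subunit of the COMPASS complexes that methylate lysine 4 of histone H3, lies on V from 12191519 to 12192385 on the plus strand. It had 552 and 254 CPM in N2 embryos, 444 and 448 in FAS43 embryos, 84.1 and 125 in N2 L1, and 171 and 90.1 in FAS43 L1. It was the exception among the members: FAS43 embryo replicate 1 and N2 L1 replicate 2, the lowest libraries of their stage for the other 9 genes, were not the lowest for dpy-30.

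**Figure D2:**
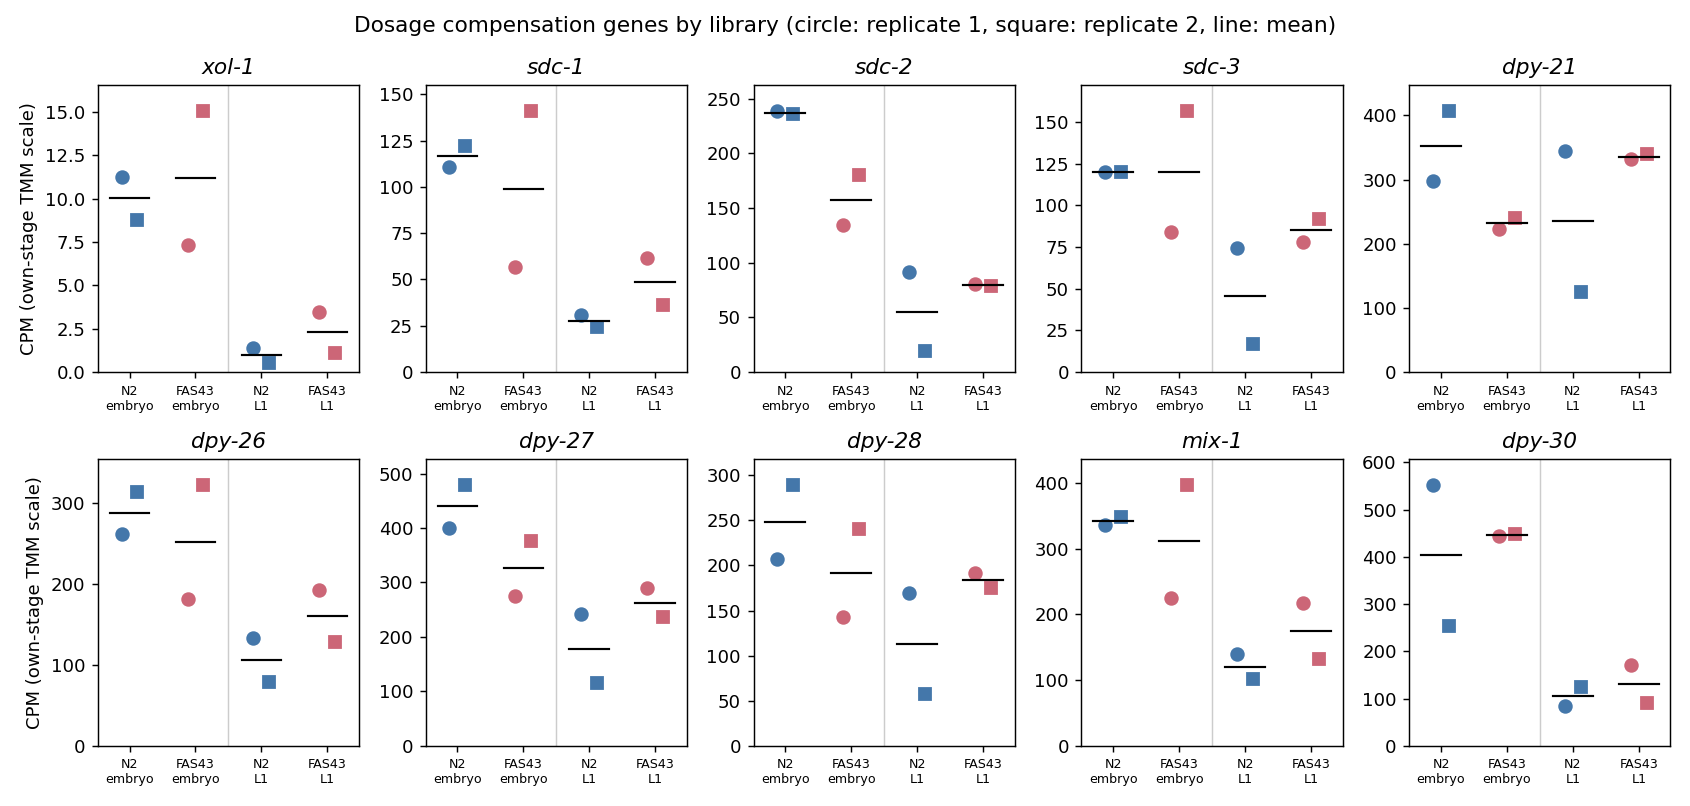
CPM of each member in every library (vertical axes from 0; circle replicate 1, square replicate 2, line the mean of the group). L1 libraries sit below embryo libraries for xol-1, sdc-2, mix-1 and dpy-30 in both strains, while dpy-21 overlaps between the stages in N2.

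Some neighbouring genes share bases with members, and the strand setting of the authors' counting is not given in the sources used here. Rnp-1 begins within dpy-30, and its first 113 bases lie on the same strand, and 84 bases are shared by dpy-26 and C25G4.3. Mix-1 contains VM106R.1 on the other strand, with 1494 bases in common, and shares 43 bases with M106.8. The antisense RNA anr-16 lies opposite sdc-2 over 1650 bases, and short noncoding genes lie within dpy-21 (Y59A8B.38, 78 bases) and mix-1 (M106.6, 75 bases). These overlaps are of whole gene spans, introns included, and the part that lies in exons was not counted. The values of these members are uncertain to the extent that reads there were assigned otherwise.

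Set per kilobase of exon, the order of the members was much the same in the 4 groups. Dpy-30 was highest, at 687 ± 359.7 CPM per kb in N2 embryos, 760.2 ± 5.35 in FAS43 embryos, 178 ± 49.3 in N2 L1 and 222 ± 97.1 in FAS43 L1 (SD, n = 2 each). Mix-1, dpy-27, dpy-26, dpy-21 and dpy-28 followed, between 53.2 and 83.8 CPM per kb in N2 embryos, and most neighbours among them overlapped. The sdc genes lay below them in every group, with 30.2 ± 2.01 CPM per kb for sdc-1, 25.7 ± 0.213 for sdc-2 and 17.7 ± 0.0180 for sdc-3 in N2 embryos. Xol-1 was lowest, at 4.07 ± 0.706 CPM per kb in N2 embryos and 0.396 ± 0.253 in N2 L1. Dpy-21 changed place, from rank 5 in N2 embryos and 6 in FAS43 embryos to rank 2 in both L1 groups.

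Loss of H3.3 was compared with wild type in embryos, which asks whether the strain without H3.3 holds other RNA levels of these genes. No call was made: 0 of 10 members passed the edgeR test, against 3 of 13617 tested genes, or 0.022%. The log2 fold changes of FAS43 over N2 were negative for 7 members and positive for 3, from -0.61 for dpy-21 (SE 0.639, edgeR adjusted p = 0.9999) to 0.16 for xol-1 (SE 0.759). Their median was -0.21, beside -0.08 for all tested genes and -0.40 for the 741 genes with 4000 or more bases of exon. All 10 intervals held 0 and also held a log2 fold change of -1, so a fall of that size was within the error for any member. The groups did not overlap for 3 of 10 members, sdc-2, dpy-21 and dpy-27. With 2 libraries against 2, full separation arises in 0.3333 of the possible arrangements. The share over all tested genes was not counted, so no result about the members is read from the separation. At an unadjusted p under 0.05 there were 95 genes and 0 members, and DESeq2 called 3 genes and 0 members. Without FAS43 embryo replicate 1 the members' median was 0.16, and without FAS43 embryo replicate 2 it was -0.49. Dpy-21 was at -0.15 without N2 embryo replicate 2.

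In L1 larvae the same comparison again called 0 of 10 members, against 3 of 16099 tested genes, or 0.0186%. All 10 log2 fold changes were positive, from 0.32 for dpy-30 (SE 0.612, edgeR adjusted p = 0.9996) to 1.21 for xol-1 (SE 0.829). The groups did not overlap for 3 of 10 members, sdc-1, sdc-3 and dpy-28, with log2 fold changes of 0.82, 0.91 and 0.69. The share over all tested genes was again not counted, so no result about the members is read from this. Without N2 L1 replicate 2 the values of sdc-3 and dpy-28 were 0.20 and 0.12, without N2 L1 replicate 1 they were 2.29 and 1.595, and sdc-1 was at 0.38 without FAS43 L1 replicate 1. The members' median was 0.58, beside -0.00 for all tested genes and 0.41 for the 763 genes with 4000 or more bases of exon. The common low library was N2 L1 replicate 2: without it the median was 0.24 and the log2 fold changes of sdc-2 and dpy-21 were -0.20 and -0.04, and without N2 L1 replicate 1 the median was 1.25. All 10 intervals held 0, and all held a log2 fold change of 1. At an unadjusted p under 0.05 there were 543 genes and 0 members, and DESeq2 called 6 genes and 0 members.

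With a correction for each library's trend on exon length, chosen after seeing the data, the members' median was 0.01 in embryos and 0.28 in L1. The member with the largest remaining log2 fold change in L1 was xol-1, at 1.03, and 0 members were called. Without the correction, the L1 value of xol-1 was 0.17 without FAS43 L1 replicate 1, 0.69 without N2 L1 replicate 2 and 2.00 without N2 L1 replicate 1. The difference of the genotype effect between the stages was positive for 10 of 10 members, with a median of 0.87, beside 0.02 for all tested genes and 0.68 for the 741 genes with 4000 or more bases of exon. The members' median was 0.34 under the same correction, where mix-1 was negative. With no correction it was 0.34 without N2 L1 replicate 2, 0.56 without FAS43 embryo replicate 1 and 1.62 without N2 L1 replicate 1. The difference was called for 0 of 10 members and for 0 of 13335 genes tested with edgeR, or 0.0%, with 199 genes and 0 members at an unadjusted p under 0.05 and 0 genes called by DESeq2. This difference rests on the same libraries as both genotype comparisons.

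**Figure D3:**
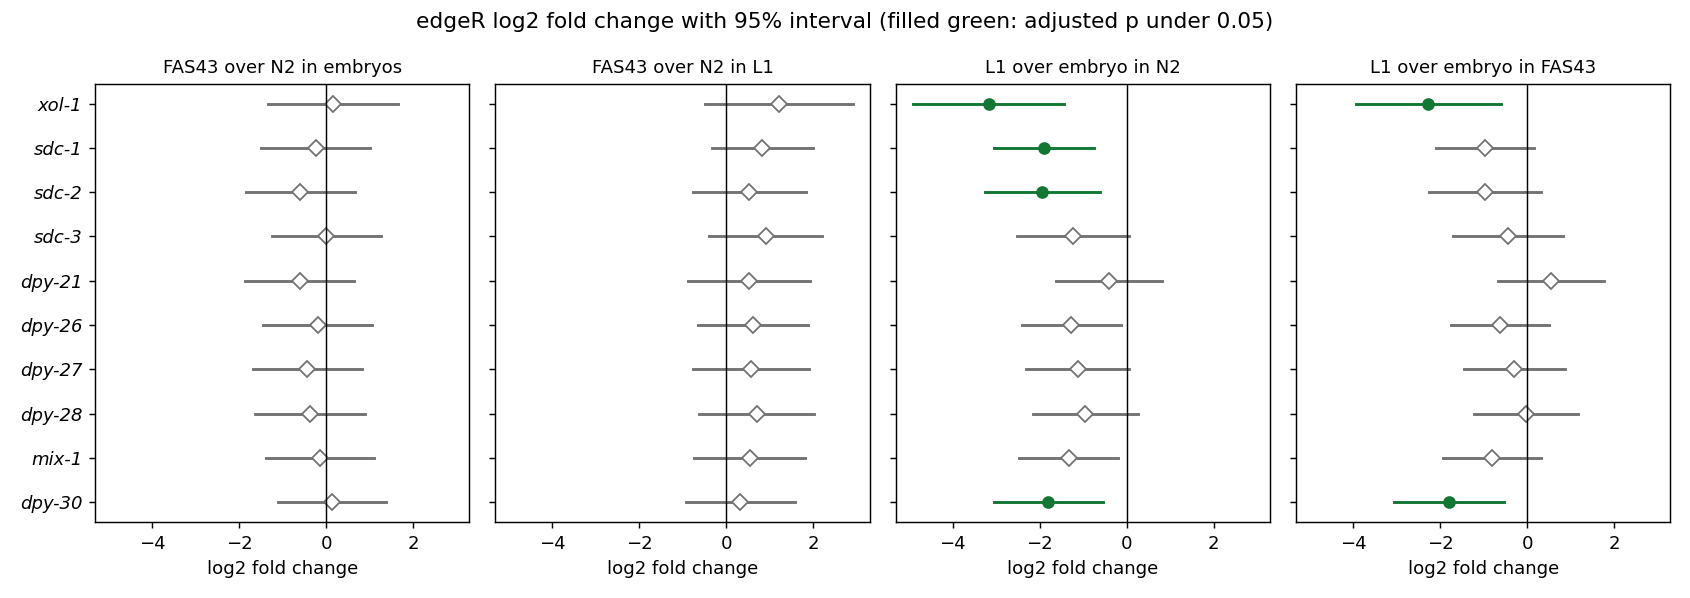
Log2 fold change of each member with its 95% interval in 4 comparisons (horizontal axis; filled green for an edgeR adjusted p under 0.05). The genotype intervals all cross 0, and calls are seen for xol-1, sdc-1, sdc-2 and dpy-30 between stages in N2 and for xol-1 and dpy-30 in FAS43.

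Between the stages in N2, 4 of 10 members fell, xol-1, sdc-2, sdc-1 and dpy-30, against 16.2% of all tested genes called lower and 238 of 1989 X-linked ones. Of the 7 members with 4000 or more bases of exon 1 was called lower, sdc-2, against 7.96% of all genes of that length. Of the members 0 were called higher, against 22.6% of all tested genes. All 10 log2 fold changes of L1 over embryo were negative, with a median of -1.30 beside 0.00 for all genes. Each stage has its own table, so a level compared over both presumes the same counting, and the CPM given here use a scale common to the 8 libraries.

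Xol-1 fell most among the members, from 9.38 ± 2.202 to 1.02 ± 0.641 CPM (SD, n = 2 each), a log2 fold change of -3.18 with an SE of 0.832 (edgeR adjusted p = 0.00682). Sdc-2 fell from 221 ± 15.7 to 57.5 ± 53.1 CPM, a log2 fold change of -1.94 with an SE of 0.629 (edgeR adjusted p = 0.0219), and its spread in L1 was nearly as large as its mean. The change of sdc-1 was from 108 ± 0.396 to 28.8 ± 4.77 CPM, with a log2 fold change of -1.91 with an SE of 0.549 (edgeR adjusted p = 0.0118). Dpy-30 went from 381 ± 220.1 to 109.5 ± 31.2 CPM, with a log2 fold change of -1.80 with an SE of 0.601 (edgeR adjusted p = 0.0253). The other 6 members had log2 fold changes from -1.34 for mix-1 (SE 0.543, edgeR adjusted p = 0.0586) to -0.41 for dpy-21 (SE 0.579, edgeR adjusted p = 0.587) and were not called.

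The calls in N2 depended on single libraries. Leaving out a library leaves 1 in its group, and calls over all genes moved as well, so counts of calls are not given here. The members' median log2 fold change was -1.04 without N2 L1 replicate 2 and -1.83 without N2 L1 replicate 1. Without N2 L1 replicate 2 the log2 fold changes were -2.67 for xol-1, -1.75 for sdc-1, -1.22 for sdc-2 and -2.12 for dpy-30. Without N2 embryo replicate 1 dpy-30 was at -1.04. With the correction for exon length, 9 members were called lower (all but dpy-21), when 25.5% of all genes were.

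In FAS43, 2 of 10 members fell between embryo and L1, against 9.66% of all tested genes called lower and 136 of 1989 X-linked ones. Of the 7 members with 4000 or more bases of exon 0 were called lower, against 0.54% of all genes of that length. Of the members 0 were called higher, against 15.8% of all tested genes. Xol-1 fell from 11.1 ± 3.78 to 2.28 ± 1.51 CPM, a log2 fold change of -2.27 with an SE of 0.795 (edgeR adjusted p = 0.0434). Dpy-30 fell from 459 ± 69.1 to 132 ± 48.2 CPM, a log2 fold change of -1.80 with an SE of 0.601 (edgeR adjusted p = 0.0359). The median of the members was -0.72, beside -0.03 for all genes and 0.62 for genes with 4000 or more bases of exon, and dpy-21 was the only member with a positive value, 0.54 (SE 0.580, edgeR adjusted p = 0.507). The calls of xol-1 and dpy-30 too depended on single libraries, as did those over all genes. Without FAS43 L1 replicate 2 the log2 fold changes were -1.73 for xol-1 and -1.47 for dpy-30. Without FAS43 embryo replicate 2 they were -1.87 and -1.95. With the correction for exon length 7 members were called lower, when 14.6% of all genes were. Whether the change between stages differed between the strains is the interaction given above, which called 0 members.

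Marker sums are on the scale of each stage and not on the common scale, so they compare the stages only roughly. Early embryo markers, all 17 listed and none at 0, summed to 2287 to 3277 CPM in N2 embryos and to 368 to 810 CPM in N2 L1. In FAS43 they summed to 1306 to 4224 CPM in embryos and to 992 to 2118 CPM in L1, so the stages overlapped in FAS43 and not in N2. Germline markers, all 7 listed and none at 0, summed to 213 to 299 CPM in N2 embryos and 160 to 194 CPM in N2 L1. In FAS43 they summed to 104.3 to 452 CPM in embryos and 297 to 356 CPM in L1. Their part in the stage differences of the members was not tested.

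The dosage-compensating condensin differs from a mitotic condensin by an SMC subunit, dpy-27 in place of smc-4. The ratio of dpy-27 to smc-4 was looked at after the values were seen. Per kilobase of exon, the ratio of dpy-27 to smc-4 was 0.973 and 1.07 in N2 embryos, 1.06 and 0.758 in FAS43 embryos, 2.02 and 1.74 in N2 L1, and 1.30 and 1.68 in FAS43 L1. All 4 L1 libraries lay above all 4 embryo libraries. The ratio of capg-1, the CAP-G subunit of both condensins, to dpy-27 went the other way, from 0.713 to 1.01 in embryos and from 0.481 to 0.611 in L1. The ratio of sdc-2 to dpy-27 was 0.275 to 0.342 in embryos and 0.0949 to 0.217 in L1. Of 5 ratios computed, the other two overlapped between the stages: dpy-27 to mix-1 was 0.730 to 1.06 in embryos and 0.868 to 1.38 in L1, and dpy-26 to dpy-28 was 1.19 to 1.48 in embryos and 0.807 to 1.5002 in L1. The ratios were read without a test, since they were chosen with the values in view.

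**Figure D4:**
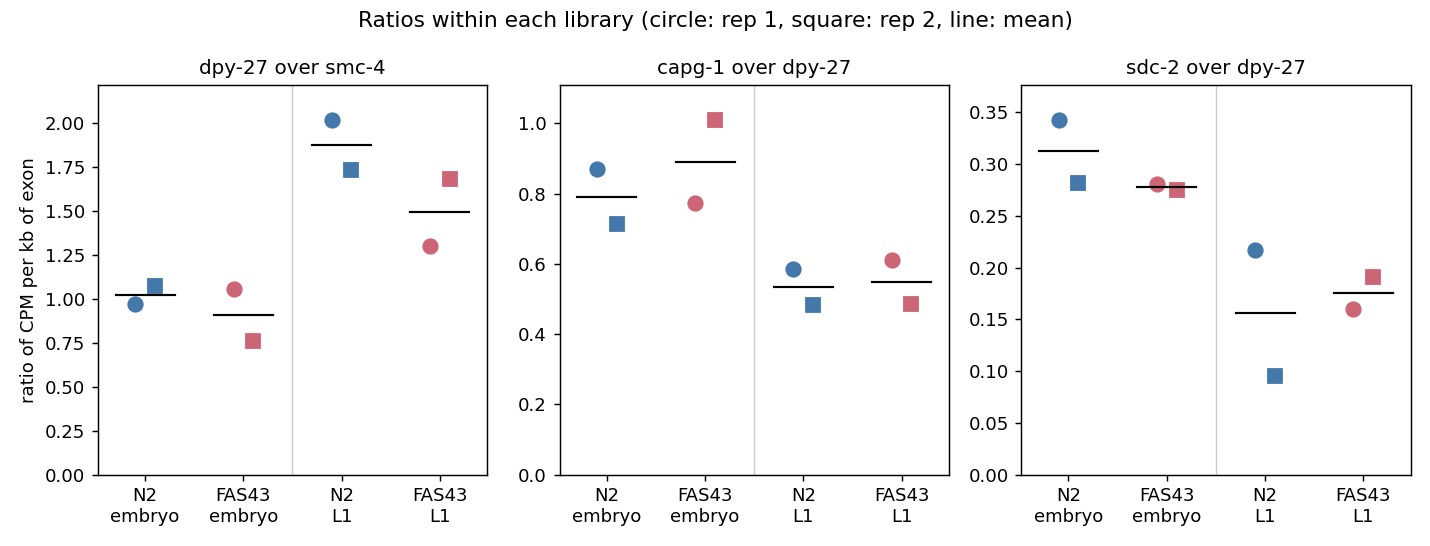
Ratios of CPM per kb of exon within each library (vertical axes from 0; circle replicate 1, square replicate 2, line the mean of the group). The dpy-27 to smc-4 ratio is at or below 1.07 in embryos and at or above 1.30 in L1, while capg-1 and sdc-2 are lower relative to dpy-27 in L1.

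The rest of the pathway was described with 6 lists of 46 names, of which 44 were listed and tested. Smc-1 and scc-2 were not listed under these names, which does not show that the genes are absent. In the genotype comparisons 0 of 44 were called in either stage. The L1 log2 fold changes were positive for 43 of them, with a median of 0.81. Of all 16099 tested genes 8008 were positive, with a median of -0.00. The part of the low library N2 L1 replicate 2 and of exon length in the pathway values was not tested. Among X and autosomal signal elements, which count X chromosomes to set xol-1, ceh-39 had a log2 fold change of 1.66 (SE 0.613) and sea-1 one of 1.58 (SE 0.618) in L1, with an edgeR adjusted p of 0.9996 for both. Leaving out single libraries gave 1.08 (without N2 L1 replicate 2) to 2.60 (without N2 L1 replicate 1) for ceh-39, and 0.64 without FAS43 L1 replicate 1 for sea-1. In embryos the most positive value was that of fog-3, which acts in sperm fate, at 1.46 (SE 0.863), and the most negative that of set-16, a methyltransferase of a COMPASS-like complex, at -0.61 (SE 0.637), both with an edgeR adjusted p of 0.9999. Without N2 embryo replicate 2 they were 0.83 and -0.24, and without N2 embryo replicate 1 fog-3 was at 3.75.

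Between stages, 25 of the 44 pathway genes were called lower and 0 higher in L1 of N2, against 16.2% and 22.6% of all tested genes. All 5 condensin subunits outside the members fell: capg-2 (log2 fold change -2.86), hcp-6 (-2.37), smc-4 (-2.04), kle-2 (-1.93) and capg-1 (-1.65). Of 5 signal elements 3 fell, sea-1 (-3.96), sex-1 (-3.22) and ceh-39 (-2.52). In the list of histone H4 lysine 20 and H3 lysine 9 methylation, 5 of 6 fell, among them set-1 (-3.09) and set-4 (-2.39), the methyltransferases of lysine 20, and cec-4 (-2.77), which anchors methylated chromatin at the nuclear edge. Of the COMPASS partners of dpy-30, 5 of 10 fell, among them wdr-5.1 (-2.52) and rbbp-5 (-2.35). Of cohesin genes 4 of 8 fell, and of sex determination genes 3 of 10, her-1 (-2.32), fem-3 (-1.94) and tra-3 (-1.48). In FAS43, 9 pathway genes were called lower and 0 higher, against 9.66% and 15.8% of all tested genes. Those called were sea-1, sex-1, her-1, set-1, set-4, cec-4, wdr-5.1, rbbp-5 and swd-2.2. The counts in both strains moved when single libraries were left out, as did those over all tested genes.

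The output of dosage compensation is the level of X-linked genes, and it did not separate the strains. The median log2 fold change of X-linked genes less that of autosomal genes was -0.05 in embryos and 0.06 in L1. The spread between replicates of the same difference, taken from each library's median deviation from the stage mean, was 0.304 in embryos and 0.124 in L1 (SD pooled over both strains of the stage). The share of all counts on X was 9.79% and 12.3% in N2 embryos and 11.4% and 9.66% in FAS43 embryos. In L1 it was 12.7% and 10.2% in N2 and 11.95% and 11.5% in FAS43, and the strains overlapped at both stages. The exact two-sided permutation p was 0.667 in embryos and 1 in L1, where 0.3333 is the smallest that 2 libraries against 2 can give. Wilson 95% intervals of these shares reach at most 0.0149 percentage points to either side and cover counting error only.

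Between stages, X-linked genes were higher relative to autosomal genes in L1, by 0.64 in N2 and 0.57 in FAS43 (differences of medians of log2 fold change), where the spread between replicates was 0.301 and 0.255. The size rested on single embryo libraries: it was 0.35 without N2 embryo replicate 1 and 0.97 without N2 embryo replicate 2 in N2, and 0.34 without FAS43 embryo replicate 2 and 0.86 without FAS43 embryo replicate 1 in FAS43. Chromosome V moved as far as X in N2, with medians of 0.57 for V and 0.56 for X, and by 0.26 against 0.46 in FAS43. The 3 X-linked members went the other way in N2, where xol-1, sdc-1 and sdc-2 were all called lower.

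**Figure D5:**
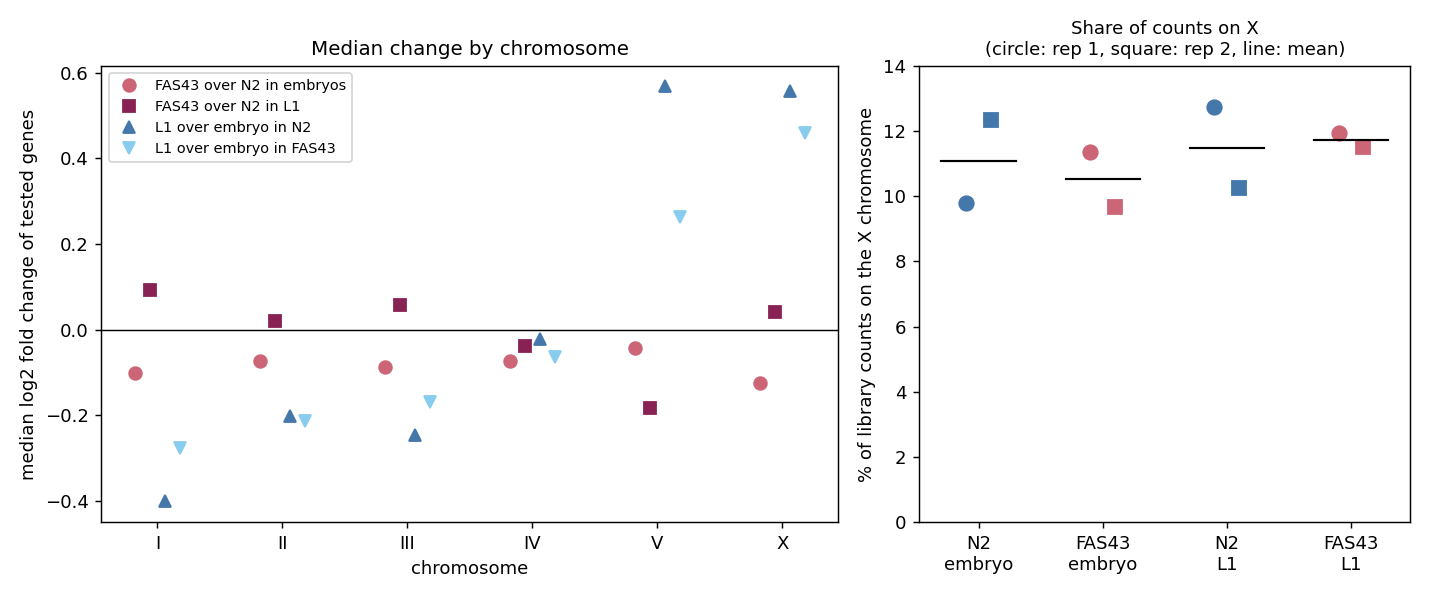
Left, median log2 fold change of the tested genes of each chromosome in 4 comparisons; right, percentage of each library's counts that lie on X, from 0 (circle replicate 1, square replicate 2, line the mean of the group). X stands above chromosomes I to IV between stages, and the share on X overlaps between N2 and FAS43.

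Genes whose pattern over the 8 libraries was closest to that of a member were found by the root mean square difference of centred log2 CPM, among 4610 candidates. For xol-1 they were cya-1 (0.140), sex-1 (0.142) and cpt-6 (0.237), and sex-1 is itself a signal element upstream of xol-1. For sdc-2 they were lam-2 (0.201), vav-1 (0.218) and pap-1 (0.221), and for dpy-27 pqn-65 (0.0555), stau-1 (0.0555) and hosl-1 (0.0675). The nearest of the other 9 members was sdc-2 for xol-1 at 0.790, sdc-3 for sdc-2 at 0.414 and dpy-26 for dpy-27 at 0.192. A search over 4610 genes finds closer ones than a search over 9, so these distances cannot be set against those above. In the authors' deposited table, 0 of the 10 members were marked as significant in either stage. The share that the authors marked over all genes was not counted, so no result about the members is read from that.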

How the data were processed

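Raw read counts per gene, one table per stage, were deposited by the authors; the tools they list, per the submitters' processing notes, are TopHat2 (version 2.0.13), HTSeq (version 0.6.1) and edgeR (version 3.10.5), with build WBcel235. Per the labels' protocols, 1000 ng of total RNA went into each stranded mRNA library, read as 50 bases. Per the file headers the tables also hold a normalized count (a signal), a log2 fold change and p-values for each gene, which were not tested here. Counts were tested with edgeR 4.0.16 (R 4.3.3) by its quasi-likelihood F-test after filterByExpr and TMM scaling, with Benjamini-Hochberg adjustment over all tested genes. Genotypes were tested within each stage (2 residual degrees of freedom), the stage differences and the interaction in one fit of 8 libraries over the 13335 shared genes (4 residual degrees of freedom). An SE is the size of the log2 fold change divided by the root of its F. Alternatives were DESeq2 1.42.0, RLE factors, 2 other filters, a replicate block, leaving out each library and, chosen after seeing the data, a crossed block and an exon length offset (a lowess trend per library). Exon lengths and positions come from an Ensembl annotation of WBcel235, which held 99.2% of embryo and 99.1% of L1 gene IDs. All members were named, with every called gene of each pathway list and the 2 genes of smallest p per list in each genotype comparison; of the latter only the largest are printed. The members and lists were chosen with earlier results of these data known. The fitting code was checked on simulated counts.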

Additional observations from a re-analysis of the deposited data

How the results depend on the processing

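The genotype comparisons and their difference between stages called 0 members and 0 pathway genes under every alternative run. Leaving out single libraries gave differences of X from autosomes of -0.27 to 0.23 between strains in embryos and -0.06 to 0.16 in L1, where 0.16 is above the spread between replicates, and of 0.35 to 0.97 between stages in N2 and 0.34 to 0.86 in FAS43. The stage calls did not hold. Leaving out a library leaves a single one in its group, and the calls over all genes moved as well. Counts of calls without single libraries are therefore listed only as a record. No result about members or pathway genes is read from them. Members called lower in N2 numbered 4, 0 with a replicate block, 9 with the exon length offset and 0 to 5 when single libraries were left out; in FAS43 they numbered 2, 0 with the block, 7 with the offset and 0 to 2. Pathway genes called lower numbered 25 in N2, 2 with the block and 7 to 26 without single libraries, and 9 in FAS43, 0 with the block, 21 with the offset and 0 to 11. DESeq2 called 6 members in N2, adding dpy-26 and mix-1, with 2 in FAS43. Over all 13335 tested genes, in either direction, DESeq2 called 6211 in N2 and 4820 in FAS43, against 5171 and 3401 with edgeR. With the replicate block the calls over all genes fell to 552 in N2 and 11 in FAS43.
The offset raised the calls over all genes too, from 5171 to 6449 in N2 and from 3401 to 4327 in FAS43, and moved the median of all genes by -0.18 in both strains; it was chosen after seeing the data and estimates its trend from the same libraries, so the degrees of freedom that the trend uses are not counted. Why the counts moved was not tested.

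With 2 pairs per stage, same-numbered libraries deviated in opposite directions (correlation -0.52 in embryos and -0.18 in L1). Deviations were taken within groups of 2, so the 2 pairs mirror each other. The correlations therefore cannot show whether equal numbers mark paired samples. Crossing the numbers called 18 genes in embryos and 6 in L1, with 0 members. Among alternative values of single named genes 1287 of 1472 kept direction and call, and 45 changed sign. In embryos the replicate block gave sdc-3 -0.0639 and the crossed block -0.0637; between stages in FAS43 it gave sdc-3 0.24, dpy-27 0.0876 and dpy-28 0.61, and for the difference between stages dpy-30 -0.14. The filter of 1 CPM in 2 libraries, which moved the embryo median of all genes by 0.18, gave dpy-26 0.000442 and mix-1 0.0615 in embryos and dpy-30 -0.00590 in the difference between stages. The offset gave, in embryos, sdc-1 0.00348, dpy-26 0.0966, mix-1 0.12, capg-1 0.0158, hcp-6 0.13 and pqn-85 0.0339, mix-1 -0.0787 in the difference between stages and dpy-21 -0.29 between stages in FAS43.

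Leaving out single libraries changed signs as follows. In embryos the ranges were -0.86 to 0.27 for sdc-1, -0.33 to 0.38 for sdc-3, -0.49 to 0.16 for dpy-26, -0.62 to 0.10 for dpy-28, -0.0947 to 0.81 for dpy-30, -0.42 to 0.22 for mix-1, -0.26 to 0.59 for xol-1, -0.52 to 0.14 for capg-1, -0.51 to 0.16 for fox-1, -0.60 to 0.22 for hcp-6, -0.66 to 0.00343 for met-2 and -0.59 to 0.0559 for pqn-85. In L1 they were -0.20 to 2.00 for sdc-2, -0.0373 to 1.36 for dpy-21 and -0.23 to 0.71 for dpy-30. For the difference between stages they were -0.76 to 0.49 for dpy-30 and -0.10 to 1.77 for xol-1. Between stages they were -1.31 to 0.14 for dpy-21 in N2 and -0.23 to 0.20 for dpy-28 in FAS43. With 2 libraries per group, intervals of single members in the genotype comparisons span more than 1 on the log2 scale, and xol-1 rests on 10 to 92 counts in L1.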
